A study of Homo sapiens with 14 samples.

Results

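UCA1, CLDN1 and CCDC68 are 3 genes that were chosen by their lower signal both where NUPR1 and where RELB had been silenced. They are 3 of the 18377 genes with 1 symbol in the array annotation. Each was measured by 1 transcript cluster (a group of probes for a gene), and all 3 were among the 11026 genes kept by a filter that left out the 40% of genes with the lowest mean. Since the siNupr1 and siRelB differences chose the genes, they are given here as a description without a test. The siRelA difference and that of siRelB against siRelA share arrays with them and are treated likewise. The comparisons of media and times, and of how a difference depends on them, are balanced over the siRNAs and did not enter the choice.

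UCA1 is a long non-coding RNA gene on chromosome 19, first described in bladder cancer and studied since as a marker of many carcinomas. CLDN1, on chromosome 3, encodes claudin-1, a membrane protein of tight junctions, the seals between neighbouring epithelial cells. CCDC68, on chromosome 18, encodes a coiled-coil protein of the subdistal appendages, which anchor microtubules at the mother centriole, and it has been reported as a candidate tumour suppressor in pancreatic cancer. NUPR1 is a small stress-induced chromatin protein. NF-kB is a family of dimeric transcription factors; RELA is the main activating subunit of its canonical branch, and RELB that of its alternative branch.

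The samples are 14 whole-transcript arrays of MiaPaCa2, an established human pancreatic cancer cell line, transfected with a small interfering RNA (siRNA). The Nupr1 set held siNupr1 cells and cells with a scrambled siRNA (siCtrl), each before starvation (0 h) and following 3, 6 and 9 h of EBSS, a salt solution that starves the cells of amino acids and growth factors. The NF-kB set held siRelA, siRelB and siCtrl cells, each at 9 h in EBSS and at 9 h in mock medium, of unstated composition. Every combination was measured on 1 array, so a difference is carried by pairs of arrays that share a time or a medium, and nothing says whether arrays came from separate cultures. The p-values then measure only the spread between these arrays, which may be technical. For the siNupr1 array at 9 h, title and source field disagree on the siRNA, and the source field was followed. For the 0 h arrays they disagree on the medium (a culture medium against EBSS), and these arrays stand for unstarved cells.

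Values are on the log2 scale of robust multi-array average (RMA), so a difference of 1 is 2-fold. Array medians lay between 5.67 and 5.84 and precision is limited by how few arrays there are. The epithelial keratin genes KRT8 and KRT18 and the mesenchymal gene VIM lay at or above the 99.9th percentile of all genes. Of 2 genes known as deleted or silent in this line, the E-cadherin gene CDH1 lay at the 20.5th percentile and did not pass the filter, and CDKN2A lay at the 46th (6.14) and passed it. Of 4 fibroblast genes, COL1A2 had a high signal, with a mean of 10.23 and arrays between 9.22 and 10.99, COL1A1 lay at 6.90 and passed the filter, and DCN and LUM lay at 2.85 and 2.37. Of 3 leukocyte genes, CD14 lay at 5.90 and passed the filter, and CD3E and PTPRC lay at 4.98 and 2.65. None of 3 endothelial and 3 acinar genes passed the filter. The part of other cell types in the results was not tested. Each siRNA lowered its own gene, with a difference of -0.87 ± 0.10 for NUPR1 with siNupr1 (SE, 4 pairs; limma adjusted p = 1.95e-05), -2.49 ± 0.13 for RELA with siRelA (2 pairs; limma adjusted p = 2.96e-10) and -1.32 ± 0.17 for RELB with siRelB (2 pairs; limma adjusted p = 3.62e-05). RELB also fell with siNupr1, at -0.67 ± 0.12 (limma adjusted p = 0.000945), and NUPR1 with siRelB, at -0.43 ± 0.14 (limma adjusted p = 0.0442).

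The siRNAs are shown because the choice of the genes rests on them. The labels list a further sequence for NUPR1 and for RELB and do not say which was on the arrays; the sequence listed under the plain name is given. Sense strands are written 5′ to 3′, and the capitals mark the bases that pair with the seed (bases 2 to 8) of the antisense strand, the part that an siRNA can share with transcripts it was not designed for.
siNupr1: ggaggacccagGACAGGAu
siRelA: gaucaauggcUACACAGg
siRelB: ggauuugccgaAUUAACAa
The seeds of the 3 siRNAs differ from each other, and the longest run of bases that siNupr1 shares with siRelB is 4. No transcript sequences were searched for these seeds here.

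Promoters are shown because subunits of a DNA-binding factor were silenced. Of the 3 genes, 2 matched the promoter table, CLDN1 and CCDC68, and UCA1 did not (RefSeq, GRCh38.p14, 250 bases before to 50 after a start). CCDC68 has 2 entries. Capitals mark matches, on both strands, to 7 motifs: the kappaB consensus bound by NF-kB, AP-1 (TGANTCA), TEAD (GGAATG), C/EBP-ATF (TGATGNAAT), the E-box CACCTG, the TATA box (TATAAA) and the GC box (GGGCGG).
CLDN1, chr3:190322397-190322696, minus strand: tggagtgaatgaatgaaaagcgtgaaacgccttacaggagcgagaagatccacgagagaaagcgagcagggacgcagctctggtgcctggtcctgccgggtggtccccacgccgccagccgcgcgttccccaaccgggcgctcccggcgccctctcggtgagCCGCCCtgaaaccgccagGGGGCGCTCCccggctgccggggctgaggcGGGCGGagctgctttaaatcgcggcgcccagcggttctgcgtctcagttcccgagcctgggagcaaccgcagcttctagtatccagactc
CCDC68, upstream entry, chr18:54959412-54959711, minus strand: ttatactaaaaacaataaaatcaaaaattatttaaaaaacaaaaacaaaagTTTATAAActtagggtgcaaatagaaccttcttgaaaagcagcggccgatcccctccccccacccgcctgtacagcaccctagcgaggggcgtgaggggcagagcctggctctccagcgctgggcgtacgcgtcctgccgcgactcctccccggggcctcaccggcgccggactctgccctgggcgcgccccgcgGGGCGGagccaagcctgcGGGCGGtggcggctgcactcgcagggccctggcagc
CCDC68, downstream entry, chr18:54957999-54958298, minus strand: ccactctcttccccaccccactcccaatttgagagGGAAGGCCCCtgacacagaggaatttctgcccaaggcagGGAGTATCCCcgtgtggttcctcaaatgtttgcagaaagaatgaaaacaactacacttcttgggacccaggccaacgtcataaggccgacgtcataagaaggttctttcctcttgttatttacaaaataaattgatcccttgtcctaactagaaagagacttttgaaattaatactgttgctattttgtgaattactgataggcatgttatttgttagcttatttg
The CLDN1 promoter held 1 kappaB match and 2 GC boxes, and 67% of its bases were G or C. The upstream CCDC68 entry held 2 GC boxes and 2 TATA box matches, which lie on opposite strands of the same stretch, with 60.7% G or C. The downstream entry, with 42.3% G or C, held 2 kappaB matches and no GC box. None of the 3 windows held the AP-1, TEAD, C/EBP-ATF or CACCTG letters. Of 35116 promoters in the table, 11.3% held a kappaB match, 45% a GC box, 11.5% a TATA box, 7.71% an AP-1, 14% a TEAD, 0.991% a C/EBP-ATF and 20.6% a CACCTG match. A match is a description of these letters and not a site of binding.

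In the Nupr1 set, UCA1 was at 10.02, 9.88, 9.84 and 10.27 in siNupr1 cells at 0, 3, 6 and 9 h, against 10.82, 10.81, 10.71 and 11.11 in siCtrl cells. The 4 siNupr1 arrays all lay below the 4 siCtrl arrays, with 10.27 and 10.71 as the nearest values. The difference was -0.79, -0.93, -0.87 and -0.83 at the 4 times, so UCA1 stood at between 52.3% and 57.7% of its siCtrl level at each of them. Among the 8 arrays the order of UCA1 was the same in both siRNA groups, lowest at 6 h and highest at 9 h. Within a group the values at 0, 3 and 6 h lay 0.18 or less apart, whereas the residual spread of the fit was 0.10 for this gene.

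CLDN1 was at 6.99, 7.21, 7.51 and 8.11 in siNupr1 cells at 0, 3, 6 and 9 h, against 7.50, 8.06, 8.42 and 8.89 in siCtrl cells. It climbed with time in both groups, and so the groups overlapped: siNupr1 cells at 9 h had a higher signal than siCtrl cells at 0 h and 3 h. At each time the siNupr1 array was the lower one, with differences of -0.51, -0.86, -0.92 and -0.78. The smallest of these 4 differences was at 0 h, before starvation.

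CCDC68 was at 7.13, 6.85, 6.47 and 6.63 in siNupr1 cells at 0, 3, 6 and 9 h, against 8.11, 7.52, 7.14 and 7.39 in siCtrl cells. The signal was highest at 0 h and lowest at 6 h in both groups. The groups did not overlap, but the highest siNupr1 array (7.13 at 0 h) and the lowest siCtrl array (7.14 at 6 h) were nearly level. The differences were -0.98, -0.67, -0.67 and -0.77, the largest of them at 0 h. Groups that do not overlap in this direction, as for UCA1 and CCDC68, were found for 3.43% of the tested genes.

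**Figure D1:**
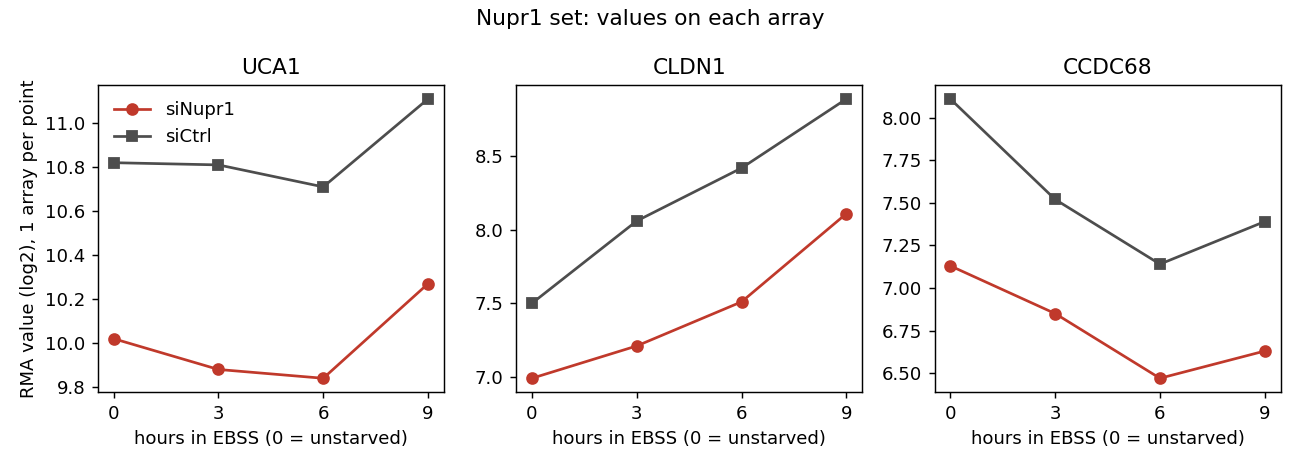
RMA values (log2) of UCA1, CLDN1 and CCDC68 against hours in EBSS in the Nupr1 set, with siNupr1 cells as circles and siCtrl cells as squares, 1 array per point. The siNupr1 line runs below the siCtrl line in all 3 panels; UCA1 is nearly level up to 6 h, CLDN1 climbs to 8.11 in siNupr1 and 8.89 in siCtrl cells at 9 h, and CCDC68 falls to 6.47 and 7.14 at 6 h.

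Over the 4 pairs the siNupr1 difference was -0.86 ± 0.07 for UCA1, -0.76 ± 0.11 for CLDN1 and -0.77 ± 0.10 for CCDC68 (fitted value ± SE). In the order of siNupr1 differences from the lowest, UCA1 was gene 5, CCDC68 gene 10 and CLDN1 gene 11 of 11026, and NUPR1 itself was gene 4. In this comparison 8.58% of the tested genes were called lower and 9.86% higher, which is given as the background only, since the comparison chose the genes. Whether the siNupr1 difference changed over the hours is a question the choice did not use. Its slope was -0.002 ± 0.019 log2 units per hour for UCA1 (limma adjusted p = 0.97), -0.029 ± 0.030 for CLDN1 (limma adjusted p = 0.622) and 0.021 ± 0.029 for CCDC68 (limma adjusted p = 0.714). The 95% intervals ran from -0.043 to 0.039 for UCA1, from -0.092 to 0.035 for CLDN1 and from -0.040 to 0.083 for CCDC68. By limma 0 of 11026 genes passed for this slope, with 2149 at an unadjusted p under 0.05. With each set fitted alone 841 passed, and without the siRelA array in EBSS or in mock 66 or 46.

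In the NF-kB set, UCA1 was at 10.19 in siRelB cells, 11.10 in siRelA cells and 11.13 in siCtrl cells in EBSS. In mock medium it was at 10.50 in siRelB cells, 11.21 in siRelA cells and 11.03 in siCtrl cells. The 2 siRelB arrays were the lowest of the 6, and the siRelA and siCtrl arrays lay within 0.18 of each other.

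CLDN1 was at 7.61 in siRelB cells, 7.81 in siRelA cells and 8.59 in siCtrl cells in EBSS. In mock medium it was at 7.41 in siRelB cells, 8.20 in siRelA cells and 8.27 in siCtrl cells. The siRelA array was thus close to the siRelB array in EBSS and close to the siCtrl array in mock medium.

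CCDC68 was at 5.23 in siRelB cells, 5.67 in siRelA cells and 6.27 in siCtrl cells in EBSS. In mock medium it was at 6.88 in siRelB cells, 6.76 in siRelA cells and 7.50 in siCtrl cells. The siRNA groups overlapped, since every EBSS array was below every mock array. The siRelA and siRelB arrays in EBSS lay under the filter's level of 5.805, in a range of dim signals. The siCtrl array in EBSS (6.27) lay within the range of 6.00 to 6.55 of CDKN2A, known as deleted or silent in this line.

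**Figure D2:**
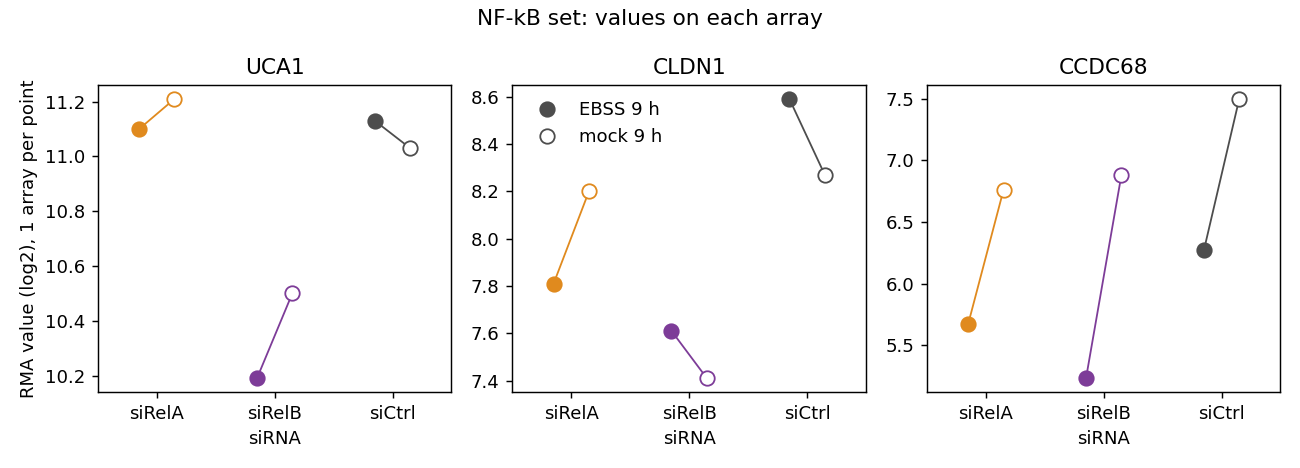
RMA values (log2) of the 3 genes in the NF-kB set for siRelA, siRelB and siCtrl cells, with EBSS at 9 h as filled and mock at 9 h as open circles joined by a line, 1 array per point. UCA1 is low on the 2 siRelB arrays alone (10.19 and 10.50), CLDN1 is low on the siRelB arrays and on the siRelA array in EBSS (7.81), and all 3 EBSS values of CCDC68 lie below its mock values.

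The siRelB difference, which chose the genes, was -0.74 ± 0.10 for UCA1, -0.92 ± 0.15 for CLDN1 and -0.83 ± 0.14 for CCDC68 (2 pairs each). Of the tested genes 8.55% were called lower and 7.58% higher with siRelB, and both siRelB arrays lay below both siCtrl arrays, as for UCA1 and CLDN1, for 11.5%. In EBSS the difference was -0.95, -0.99 and -1.04 for the 3 genes in this order, and in mock medium -0.53, -0.86 and -0.61. The difference in EBSS minus that in mock medium was -0.42 ± 0.18 for UCA1 (limma adjusted p = 1), -0.12 ± 0.27 for CLDN1 (limma adjusted p = 1) and -0.42 ± 0.27 for CCDC68 (limma adjusted p = 1). RELB itself was at 6.73 and 6.16 in siRelB cells in EBSS and mock, against 8.41 and 7.11 in siCtrl cells. This dependence on the medium rests on 1 pair in each medium, with the spread taken from the Nupr1 set. By limma 0 genes passed for it, with 401 (3.64%) at an unadjusted p under 0.05, UCA1 among these. This share is below the one that such a threshold passes where no gene depends on the medium.

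Silencing of RELA asks whether the 3 genes were also lower without the other subunit. It uses the same 2 siCtrl arrays as the siRelB comparison that chose the genes, so its values are not independent of the choice and are given side by side with those of siRelB, without a test. The siRelA difference was 0.07 ± 0.10 for UCA1 (SE, 2 pairs), with -0.03 in the EBSS pair and 0.18 in the mock pair. For CCDC68 it was -0.67 ± 0.14, with -0.60 in the EBSS pair and -0.74 in the mock pair. For CLDN1 it was -0.43 ± 0.15, with -0.78 in the EBSS pair and -0.07 in the mock pair. Of all tested genes, 11.4% were called lower with siRelA and 10.1% higher. The CLDN1 value rests on the EBSS pair: it was -0.11 ± 0.17 without the siRelA array and -0.22 ± 0.19 without the siCtrl array in EBSS. The CCDC68 value was -0.49 ± 0.18 without the siRelA array in mock medium. Whether the siRelA difference depends on the medium is not fixed by the choice. The difference of siRelA between EBSS and mock medium was -0.71 ± 0.27 for CLDN1 (limma adjusted p = 0.841), -0.21 ± 0.18 for UCA1 (limma adjusted p = 0.999) and 0.14 ± 0.27 for CCDC68 (limma adjusted p = 0.999). For this dependence on the medium limma called 0.0363% of the tested genes.

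Against siRelA cells, siRelB cells had a UCA1 difference of -0.81 ± 0.10 (-0.91 in EBSS and -0.71 in mock medium). The same difference was -0.50 ± 0.15 for CLDN1, made up of -0.20 in EBSS and -0.79 in mock medium, and -0.16 ± 0.14 for CCDC68, made up of -0.44 and 0.12. These values share the siRelB arrays with the choice of the genes and are given without a test. By value, siRelA cells lay near siCtrl cells for UCA1 in both media, near siRelB cells for CLDN1 in EBSS and near siCtrl cells in mock medium, and below siCtrl cells for CCDC68 in both media.

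**Figure D3:**
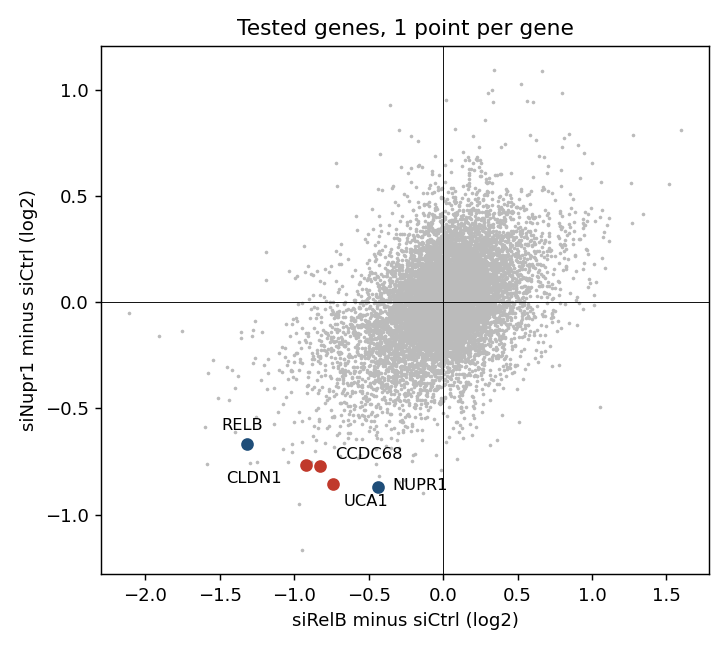
Fitted log2 difference with siNupr1 (vertical) against that with siRelB (horizontal), each minus siCtrl, with 1 point for each of 11026 tested genes; the 3 genes are in red, and RELB and NUPR1 in blue. The 3 genes lie at the lower left, between -0.86 and -0.76 for siNupr1 and between -0.92 and -0.74 for siRelB, where they were picked.

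Genes called lower in both of these comparisons numbered 304, or 2.76% of those tested. Ordered by the smaller of their 2 falls, CCDC68, CLDN1 and UCA1 were genes 3, 4 and 10 of the 304. Since these comparisons chose the 3 genes, their place in the order describes the choice and is not a test. The choice set no limit; CXCL8, which encodes the chemokine interleukin 8, and TNFRSF9 stood above all 3 (-0.95 for each), and NUF2, RC3H2, CIP2A, MBOAT1 and MIGA1 stood between CLDN1 and UCA1. ANLN (-0.71) came next after UCA1.

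Starvation was not used in the choice, and here the 3 genes parted. CLDN1 rose over the hours in EBSS in the Nupr1 set: its difference from 0 h was 0.39 ± 0.15 at 3 h (limma adjusted p = 0.0996), 0.72 ± 0.15 at 6 h (limma adjusted p = 0.00163) and 1.25 ± 0.15 at 9 h (limma adjusted p = 5.65e-06; 2 pairs at each time). In siNupr1 cells the differences from 0 h at 3, 6 and 9 h were 0.21, 0.51 and 1.12, and in siCtrl cells 0.56, 0.92 and 1.38. CLDN1 went up again between 3 h and 9 h, by 0.86 ± 0.15 (limma adjusted p = 0.0019). At 9 h the level was 2.38-fold that at 0 h, and CLDN1 was among the 9.19% of tested genes called higher; at 3 h and 6 h 3.27% and 7.65% were.

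CCDC68 fell in EBSS. Its difference from 0 h was -0.43 ± 0.14 at 3 h (limma adjusted p = 0.0514), -0.81 ± 0.14 at 6 h (limma adjusted p = 0.000382) and -0.61 ± 0.14 at 9 h (limma adjusted p = 0.0038). At 9 h 65.7% of the 0 h level was left. In siNupr1 cells the differences at 3, 6 and 9 h were -0.28, -0.65 and -0.50, and in siCtrl cells -0.58, -0.96 and -0.71. Genes called lower made up 9.07% of those tested at 3 h, 15.7% at 6 h and 15.1% at 9 h.

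UCA1 passed at none of the 3 times against 0 h, with -0.07 ± 0.10 at 3 h (limma adjusted p = 0.689), -0.14 ± 0.10 at 6 h (limma adjusted p = 0.326) and 0.27 ± 0.10 at 9 h (limma adjusted p = 0.0535). The 95% interval at 9 h ran from 0.06 to 0.48. Between 3 h and 9 h it was higher by 0.34 ± 0.10 (limma adjusted p = 0.0394), in siNupr1 cells by 0.39 and in siCtrl cells by 0.29; 4.68% of tested genes were called higher in this comparison. That call was lost without any 1 of the 3 h, 6 h and 9 h arrays of either siRNA (limma adjusted p of 0.0639 to 0.334) and without the filter on dim genes (0.0672).

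Single arrays decided some of the other calls. For CLDN1, that at 6 h needed the siCtrl arrays: it did not pass without the one at 0 h (0.55 ± 0.18, limma adjusted p = 0.0527) or at 6 h (0.62 ± 0.20, limma adjusted p = 0.0658). Its call between 3 h and 9 h was lost without the siNupr1 array at 3 h (0.80 ± 0.20, limma adjusted p = 0.0623). At 3 h CLDN1 passed without the siNupr1 array at 0 h (0.56 ± 0.18, limma adjusted p = 0.0481). CCDC68 did not pass at 9 h without the siCtrl array of 0 h (-0.47 ± 0.18, limma adjusted p = 0.084), and at 3 h the gene passed in 7 of the 14 fits with 1 array left out. UCA1 passed at 9 h in 4 of these 14 fits, each without an array of the NF-kB set.

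**Figure D4:**
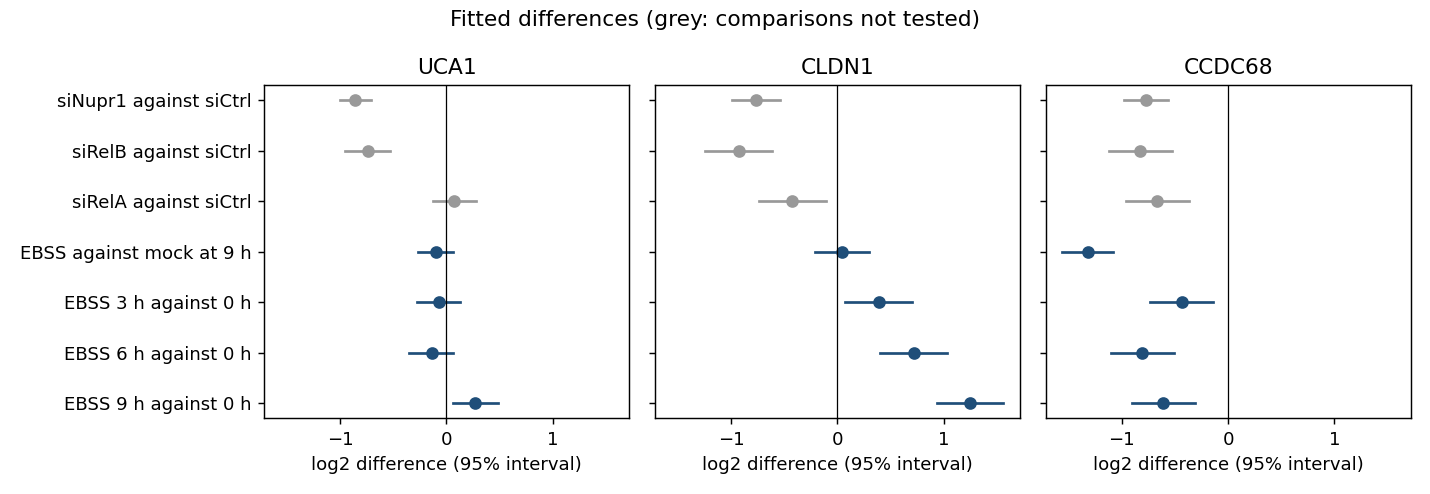
Fitted log2 differences (points) with 95% intervals (lines) for each gene in 7 comparisons; grey marks the siNupr1 and siRelB comparisons that chose the genes and the siRelA comparison that shares their siCtrl arrays, none of them tested, and blue the others. The differences of CLDN1 from 0 h lie to the right of 0 and climb to 1.25 at 9 h. Its difference from mock is 0.04, with an interval from -0.21 to 0.30. All starvation differences of CCDC68 lie to the left of 0, and the siRelA value of UCA1 is 0.07.

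In the NF-kB set, EBSS was set against mock medium at 9 h. CCDC68 was at 5.67, 5.23 and 6.27 in EBSS in siRelA, siRelB and siCtrl cells, against 6.76, 6.88 and 7.50 in mock medium. The 3 EBSS arrays lay below all mock arrays, which 22.7% of tested genes also showed. The gene fell by 1.32 ± 0.12 (3 pairs, limma adjusted p = 2.38e-08), which left 40% of the mock level; 29.3% of tested genes were called lower and 22.6% higher. CLDN1 differed by 0.04 ± 0.12 (limma adjusted p = 0.77; 95% interval -0.21 to 0.30), with -0.39 in siRelA, 0.20 in siRelB and 0.32 in siCtrl cells. UCA1 differed by -0.10 ± 0.08 (limma adjusted p = 0.28), with -0.11 in siRelA, -0.31 in siRelB and 0.11 in siCtrl cells. In bulk RNA of a culture, fewer cells that hold a transcript and less of it per cell cannot be told apart.

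The starvation difference at 9 h was larger in the Nupr1 set than in the NF-kB set for CLDN1, by 1.21 ± 0.19 (limma adjusted p = 0.000137). It was also the higher one there for CCDC68, which fell less in the Nupr1 set (0.72 ± 0.18, limma adjusted p = 0.00731), and for UCA1 (0.37 ± 0.13, limma adjusted p = 0.0386). Of the tested genes 16.4% were called higher in this comparison of sets. The sets differ in the unstarved sample too (0 h against mock at 9 h), and the set and that sample cannot be told apart. The siRNAs averaged over also differ between the sets. With siCtrl alone, the difference from 0 h at 9 h and that from mock were 1.38 and 0.32 for CLDN1. They were -0.71 and -1.23 for CCDC68 and 0.29 and 0.11 for UCA1. In siCtrl cells in EBSS at 9 h, which both sets hold, UCA1 was at 11.11 in the Nupr1 set and 11.13 in the NF-kB set, CLDN1 at 8.89 and 8.59, and CCDC68 at 7.39 and 6.27. The UCA1 call was lost in 12 of the 14 fits with 1 array left out (limma adjusted p of 0.0532 to 0.152), and the CCDC68 call without the siNupr1 array at 0 h (0.58 ± 0.21, limma adjusted p = 0.0663).

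The genomic span of a gene moved with the EBSS difference in the NF-kB set. Over 11019 tested genes with a span in the GRCh38.p14 table, Spearman's rho between span and the difference from mock was -0.424. It was -0.023 for EBSS at 9 h against 0 h, -0.187 with siNupr1, -0.021 with siRelB and 0.048 with siRelA. Genes are not independent replicates. The span is 58 kb for CCDC68, 16.7 kb for CLDN1 and 7.38 kb for UCA1. Of the 1888 genes that span 40 to 80 kb, the median difference from mock was -0.17 with quartiles of -0.56 and 0.14, and CCDC68 lay at their 3.3rd percentile. After the trend with span was taken out of every array, an alternative chosen after the data were seen, the CCDC68 difference was -1.15 ± 0.12 (limma adjusted p = 1.3e-06). UCA1 then passed as well, at -0.25 ± 0.08 (limma adjusted p = 0.0118), and its 9 h difference from 0 h was 0.32 ± 0.09 (limma adjusted p = 0.0194).

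**Figure D5:**
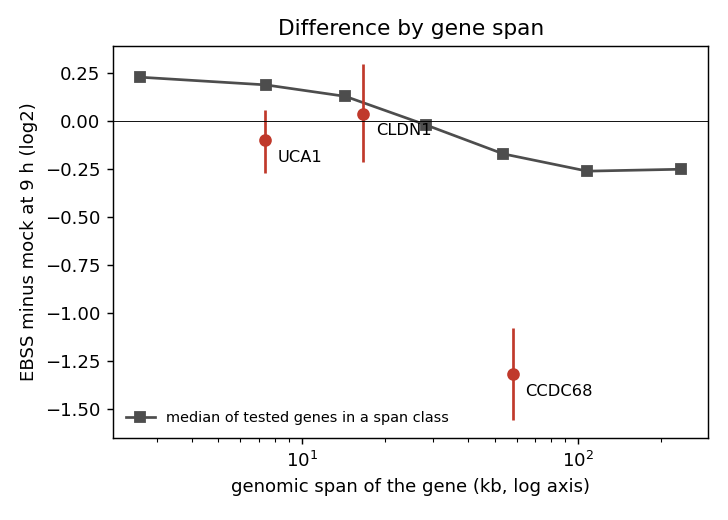
EBSS minus mock at 9 h (log2) against genomic span (kb, log axis): squares are medians of tested genes in 7 span classes, and red points the 3 genes with 95% intervals. The medians run from 0.23 in the shortest class to -0.26 and -0.25 in the 2 longest, and CCDC68 at -1.32 lies below all 7 medians.

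The genes most like each of the 3 were found by Pearson's r over the 14 arrays after each gene was centred within its set; the arrays are shared, and the siRNA differences that chose the genes are part of the pattern. For UCA1 they were PRR11 (r = 0.918), MCUR1 (0.886), HJURP (0.866), which places the centromeric histone, NCEH1 (0.861) and NEK3 (0.857). For CLDN1 they were SMURF2 (r = 0.981), a ubiquitin ligase of TGF-beta signalling, FEM1B (0.921), the transcription factor gene ETS1 (0.921), TNRC6C (0.911) and CYLD (0.906), a deubiquitinase that restrains NF-kB. ETS1 was 1.02 higher and SMURF2 0.72 higher after 9 h in EBSS, beside 1.25 for CLDN1. For CCDC68 they were TOPBP1 (r = 0.974), of the DNA replication checkpoint, PRPF38B (0.968), CHUK (0.966), which encodes the IKK-alpha kinase of the alternative NF-kB branch, ARHGAP11A (0.965) and PPWD1 (0.961). CHUK was at -0.62 with siNupr1, -0.70 with siRelB and -1.29 in EBSS against mock. An r over 0.8 was reached by 13 genes for UCA1, 70 for CLDN1 and 900 for CCDC68. The median span of these genes was 41 kb for UCA1, 51.8 kb for CLDN1 and 50.5 kb for CCDC68, against 24.7 kb for all tested genes. The part of span in the likeness was not tested. Among the 3 genes themselves r was 0.76 between UCA1 and CLDN1, 0.55 between UCA1 and CCDC68 and 0.20 between CLDN1 and CCDC68.

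Measured neighbours on the chromosome, the 3 that start nearest on each side, show whether nearby genes moved too, though some of them lie far off. None of the 6 neighbours of UCA1, 4 olfactory receptor genes of the OR10H family and the cytochrome genes CYP4F2 and CYP4F11, passed the filter on dim genes. CLDN16, whose annotated span starts before CLDN1 and covers it, did not pass the filter, nor did TMEM207, IL1RAP and OSTN beside CLDN1. The others, P3H2 at 183.4 kb and TPRG1 at 980.4 kb, differed by -0.18 ± 0.10 and 0.04 ± 0.09 with siNupr1 (limma adjusted p = 0.262 and 0.834). With siRelB they differed by -0.02 ± 0.15 and 0.28 ± 0.13 (limma adjusted p = 0.957 and 0.155). RAB27B, a gene of vesicle transport 6 kb from CCDC68, differed by 0.07 ± 0.11 with siNupr1 (limma adjusted p = 0.705) and -0.23 ± 0.15 with siRelB (limma adjusted p = 0.336). RAB27B fell with siRelA, at -1.25 ± 0.15 (limma adjusted p = 1.01e-05), and in EBSS against mock, at -1.06 ± 0.12 (limma adjusted p = 6.5e-07). TXNL1, 1637.7 kb away on the other side of CCDC68 and beyond TCF4 and LINC03069, fell with siRelB at -0.51 ± 0.12 (limma adjusted p = 0.00615). With siNupr1 TXNL1 was at 0.05 ± 0.09 (limma adjusted p = 0.745). DYNAP, C18orf54, TCF4 and LINC03069, the other neighbours of CCDC68, did not pass the filter.

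Of 9 tested of the 23 other claudin genes, 0 were called lower and 1 higher with siNupr1, and 1 was called lower and 0 higher with siRelB. Limma called 8.58% of all tested genes lower and 9.86% higher with siNupr1, and 8.55% lower and 7.58% higher with siRelB, so the claudin counts lie near these shares. CLDN12 was the one lower with siRelB, at -1.22 ± 0.14 (limma adjusted p = 1.51e-05). CLDN4, a sealing claudin, was higher with siNupr1 by 0.41 ± 0.10 (limma adjusted p = 0.00762). CLDN4 rose in EBSS, by 0.80 ± 0.14 at 9 h against 0 h (limma adjusted p = 0.000295) and by 0.50 ± 0.11 against mock (limma adjusted p = 0.00133). In EBSS against mock 4 of the 9 claudins were called higher and 0 lower (22.6% and 29.3% of all tested genes). At 9 h against 0 h 1 was called higher and 0 lower (9.19% and 15.1% of all tested genes). The median difference of the 9 claudins was 0.01 with siNupr1 and -0.01 with siRelB, against 0.01 and 0.00 for all tested genes.

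Of 16 tested partners of claudins at tight junctions, 3 were higher and 2 lower with siNupr1, and 3 were higher and 2 lower with siRelB. The shares of all tested genes were 9.86% and 8.58% with siNupr1 and 7.58% and 8.55% with siRelB. AMOTL2 was lower with siNupr1 at -0.54 ± 0.12 (limma adjusted p = 0.00353), and the scaffold gene PATJ was higher with siRelB by 0.91 ± 0.13 (limma adjusted p = 7.99e-05). After 9 h in EBSS, TJP1, which encodes the scaffold ZO-1 that binds claudins, rose by 0.57 ± 0.12 (limma adjusted p = 0.0012), and in EBSS against mock it fell by 0.38 ± 0.10 (limma adjusted p = 0.00252). Of the 16 partners, 3 were higher and 6 lower in EBSS against mock (22.6% and 29.3% of all tested genes). At 9 h against 0 h 2 were higher and 1 lower (9.19% and 15.1% of all tested genes). PALS1 was at -1.42 ± 0.11 in EBSS against mock (limma adjusted p = 6.22e-09). PRKCI was there at -0.58 ± 0.10 (limma adjusted p = 6.86e-05) and PRKCZ at 0.56 ± 0.11 (limma adjusted p = 0.000245). Of 12 tested epithelial and mesenchymal genes, 4 were higher and 1 lower with siNupr1 (9.86% and 8.58% of all tested genes), with KRT19 at 0.61 ± 0.07 (limma adjusted p = 1.18e-05) and the plakoglobin gene JUP at 0.63 ± 0.09 (limma adjusted p = 1e-04). With siRelB 2 were higher and 2 lower (7.58% and 8.55% of all tested genes), with JUP at 0.79 ± 0.12 (limma adjusted p = 0.000189) and ZEB1, a repressor of epithelial genes, at -0.67 ± 0.13 (limma adjusted p = 0.00128). The other gene lower with siRelB was the epithelial keratin gene KRT8, at -0.21 ± 0.06 (limma adjusted p = 0.0203). DSP was the gene lower with siNupr1, at -0.29 ± 0.09 (limma adjusted p = 0.0354), and was higher with siRelB by 0.50 ± 0.13 (limma adjusted p = 0.0145).

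Of 14 tested genes of centriole appendages other than CCDC68, 4 were lower and 1 higher with siNupr1 and 2 lower and 1 higher with siRelB, where 8.58% and 8.55% of all tested genes were called lower. In EBSS against mock 8 were lower and 0 higher, where 29.3% of all tested genes were called lower, and their median was -0.42, against 0.05 for all tested genes. At 9 h against 0 h 2 were lower and 0 higher (15.1% of all tested genes were called lower), and their median was -0.11, against -0.04. In EBSS against mock CEP170, a subdistal appendage protein, fell by 1.92 ± 0.11 (limma adjusted p = 7.48e-10), and NIN, which encodes the microtubule anchor ninein, fell by 1.10 ± 0.11 (limma adjusted p = 6.82e-08). At 9 h against 0 h CEP170 was at -0.07 and NIN at -0.19, and neither passed. The difference between the sets was 1.86 ± 0.18 for CEP170 (limma adjusted p = 9.26e-07) and 0.91 ± 0.17 for NIN (limma adjusted p = 0.000485). NIN was lower with siNupr1 at -0.43 ± 0.09 (limma adjusted p = 0.00344). CEP19 was lower with siNupr1 at -0.56 ± 0.10 (limma adjusted p = 0.00107) and with siRelB at -0.95 ± 0.15 (limma adjusted p = 0.000174).

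Of 35 listed long non-coding RNA genes beside UCA1, 11 had a cluster and 5 were tested. With siNupr1 4 were lower and 0 higher, and with siRelB 1 was lower and 0 higher, where 8.58% and 8.55% of all tested genes were called lower. MALAT1, a nuclear RNA of the speckles, fell with siNupr1 at -0.58 ± 0.10 (limma adjusted p = 0.000687) and with siRelB at -0.64 ± 0.14 (limma adjusted p = 0.00383). In EBSS against mock MALAT1 fell by 1.33 ± 0.12 (limma adjusted p = 2.3e-08), and at 9 h against 0 h it was at 0.245 and did not pass; the sets differed by 1.57 ± 0.18 (limma adjusted p = 5.66e-06). Of the 5 genes, 2 were lower and 3 higher in EBSS against mock, with a median of 0.42 and with EPB41L4A-AS1 at 1.01 ± 0.11 (limma adjusted p = 2.76e-07), ZFAS1 at 0.48 ± 0.11 (limma adjusted p = 0.00172) and MIR22HG at 0.42 ± 0.12 (limma adjusted p = 0.00645). There 29.3% of all tested genes were called lower and 22.6% higher. Beside MALAT1, the gene lower in EBSS against mock was TUG1, at -0.89 ± 0.09 (limma adjusted p = 1.02e-07). For TUG1 the sets differed by 1.04 ± 0.14 (limma adjusted p = 2.35e-05). MIR22HG, the host gene of a microRNA, rose by 1.36 ± 0.14 after 9 h in EBSS (limma adjusted p = 1.24e-06).

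Of 21 tested canonical NF-kB targets, 11 were lower and 0 higher with siNupr1, 11 lower and 1 higher with siRelB, and 11 lower and 1 higher with siRelA, where 8.58%, 8.55% and 11.4% of all tested genes were called lower. RELB is on this list and is the target of siRelB. The medians were -0.27, -0.43 and -0.42, against 0.01, 0.00 and 0.01 for all tested genes. NFKB2, the precursor of RELB's partner p52, was lower with siNupr1 at -0.82 ± 0.09 (limma adjusted p = 1.32e-05), NFKBIA, the NF-kB inhibitor, at -0.76 ± 0.10 (limma adjusted p = 6.03e-05), and BIRC2, an inhibitor of apoptosis, at -0.61 ± 0.09 (limma adjusted p = 0.000186). BIRC2 was lower with siRelB at -1.40 ± 0.13 (limma adjusted p = 8.44e-07) and with siRelA at -0.92 ± 0.13 (limma adjusted p = 5.16e-05). Of 17 tested YAP-TEAD targets, 4 were lower and 0 higher with siNupr1 and likewise with siRelB, where 8.58% and 8.55% of all tested genes were called lower. Their medians were -0.06 and -0.16, against 0.01 and 0.00 for all tested genes. NT5E was among them in both, at -0.42 ± 0.07 (limma adjusted p = 0.000511) and -0.74 ± 0.10 (limma adjusted p = 4.51e-05).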

How the data were processed

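Per the labels' protocols, 200 ng of total RNA went into each array. The authors deposited RMA values on the log2 scale, per the submitters' processing notes, which name limma too; no version or genome build is given in the sources used here. Of 28869 transcript clusters, 19310 had 1 symbol in the array annotation, which gave 18377 genes, with the brightest cluster kept per gene. The lowest 40% by mean (5.805) were left out, and 11026 were tested. With R 4.3.3 and limma 3.58.1, set, siRNA, medium and hours (9 columns, 14 arrays) were fitted jointly with a trend of the variance on intensity, leaving 5 residual degrees of freedom. A slope on hours and a dependence on the medium were added in turn. Benjamini-Hochberg adjusted p-values were taken over all tested genes and called under 0.05. For siRelA against siCtrl a test was planned; its p-values are not given for the 3 genes, since it shares the siCtrl arrays of the choice. The fits were run on simulated data with independent noise and few changed genes. That setting is simpler than these arrays and shows no accuracy for them. The members, gene lists and tests were chosen with earlier results of these data known. Named genes were the 3 members, the 5 genes most like each, their neighbours and, from each list, up to 3 genes past the threshold with the smallest p; no set tests were run. CXCL8, TNFRSF9, ANLN and the genes between CLDN1 and UCA1 were named after their values were seen. So were DSP with siNupr1 and KRT8 with siRelB. Some genes are also given where they were not among the 3 with the smallest p, as TJP1, ZFAS1 and MIR22HG in EBSS against mock. Alternatives were other filters, variance settings, scalings, weights, cluster rules, each set alone, each array left out and a span correction.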

Additional observations from a re-analysis of the deposited data

Results flagged for a closer look

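The starvation difference at 9 h differed between the sets for each of the 3 genes, by a contrast of the joint limma fit: 1.21 ± 0.19 for CLDN1 (adjusted p = 0.000137), 0.72 ± 0.18 for CCDC68 (adjusted p = 0.00731) and 0.37 ± 0.13 for UCA1 (adjusted p = 0.0386), each as the Nupr1 set minus the NF-kB set. CLDN1 was higher after 9 h in both pairs of the Nupr1 set and in 2 of the 3 pairs of the NF-kB set, and CCDC68 was lower in all 5 pairs. The unstarved samples differ between the sets, which cannot be told apart from the set. The siRNAs averaged over differ between the sets as well.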

How the results depend on the processing

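No paired analysis was possible because the labels give no replicate numbers to pair by; the joint fit itself matches arrays on time or medium. Alternatives were run for UCA1, CLDN1 and CCDC68 and for counts of genes called, not for the other genes named. The tested differences of these 3 genes that passed kept their direction under every alternative run; the causes of the changes below were not tested. UCA1 at 9 h against 3 h did not pass with no filter, with only the lowest 20% left out or with no intensity trend (0.34 each). Nor did it pass with array weights (0.34), after quantile normalization (0.28) or with arrays centred on their medians (0.38). The difference between the sets for UCA1 did not pass with no filter or no trend (0.37 each) or with array weights (0.38). Calls were gained at 3 h for CLDN1 with array weights (0.39) and for CCDC68 with robust eBayes, each set alone and array weights (-0.43 each). At 9 h UCA1 passed with each set alone (0.27) and with the span trend removed (0.32), which also gave -0.25 for UCA1 in EBSS against mock. UCA1 with siNupr1 was -0.96 after quantile normalization. Array weights called 2173 genes at 3 h, 1517 at 9 h, 414 at 9 h against 3 h, 3271 with siNupr1, and 6 and 39 for the medium dependence of siRelB and siRelA. For that of siRelB 1 gene passed with the lowest 20% left out, and for that of siRelA 0 with no trend and 2 with the span trend removed; each set alone called 841 for the slope.

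Leaving out each array in turn gave the following lowest and highest values. In EBSS against mock CCDC68 lay between -1.44 and -1.16. At 3 h CLDN1 lay between 0.22 and 0.56 and CCDC68 between -0.57 and -0.29. At 6 h CLDN1 lay between 0.55 and 0.89. At 9 h UCA1 lay between 0.23 and 0.31 and CCDC68 between -0.74 and -0.47. At 9 h against 3 h UCA1 lay between 0.29 and 0.39 and CLDN1 between 0.80 and 0.92. With siRelA UCA1 lay between -0.08 and 0.23, with -0.08 without the siCtrl array in mock medium, CLDN1 between -0.75 and -0.11 and CCDC68 between -0.85 and -0.49. With siRelB UCA1 lay between -0.90 and -0.58, CLDN1 between -1.13 and -0.72 and CCDC68 between -1.07 and -0.58. For siRelB against siRelA UCA1 lay between -0.97 and -0.66, CLDN1 between -0.82 and -0.17 and CCDC68 between -0.40 and 0.09; CCDC68 turned to 0.02 without the siRelA array and to 0.09 without the siRelB array in EBSS. The difference between the sets lay between 0.27 and 0.48 for UCA1 and between 0.55 and 0.85 for CCDC68. Genes called numbered 356 to 1710 at 3 h, 823 to 2990 at 6 h, 1639 to 2703 at 9 h, 117 to 1012 at 9 h against 3 h, 1120 to 2720 with siRelA, 840 to 2403 with siNupr1, 761 to 2151 with siRelB, 313 to 1442 for siRelB against siRelA, 1743 to 2994 for the difference between the sets, 0 to 66 for the slope and 4 to 25 for the medium dependence of siRelA. The medium dependence could not be fitted with each set alone or without most arrays of the NF-kB set. With 14 arrays, 1 per combination, precision rests on the spread shared over genes.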
